A study of Mus musculus with 7 samples.

Results

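The choroid plexus epithelium genes Ttr, Folr1, Kl, Clic6, Otx2, Kcnj13, Slc4a5, Aqp1, Enpp2 and Prlr were followed through 7 single-nucleus RNA libraries of mouse brain. They were taken by symbol, each matched 1 row, and they are 10 of the 32285 genes counted. All mice were hemizygous 5xFAD (+/-), a line in which the neuronal Thy1 promoter drives mutant human transgenes and amyloid plaques form. All were 6 months old, and each had been given its AAV retro-orbitally at 4 months. The control AAV group held 3 mice (a male and a female of batch 1, a male of batch 2) and the ANGPT2 AAV group 4 mice (a male and a female of each batch). By the labels the tissue, fresh-frozen, was Subcortex, Thalamus, Hippocampus, and 1 mouse gave 1 library, so p-values measure the spread between these mice. There was no group without the transgenes and none without a vector. ANGPT2 is angiopoietin-2, which binds the receptor TIE2 on endothelial cells. Libraries are called below by group, sex and batch.

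The choroid plexus is a folded epithelium over fenestrated vessels that hangs in the brain ventricles, secretes cerebrospinal fluid and forms the barrier between blood and that fluid. Its cells make transthyretin (Ttr), the secreted carrier of thyroxine and, with its retinol-binding partner, of retinol, in very large amounts. In droplet-based sequencing, free RNA from broken cells enters droplets that hold another cell's nucleus, so an abundant transcript of 1 cell type can be counted in many others. The 10 genes have distinct roles. Otx2 is a homeodomain transcription factor of the epithelium. Slc4a5 (a sodium bicarbonate cotransporter), Kcnj13 (the potassium channel Kir7.1), Clic6 (a chloride intracellular channel protein) and Aqp1 (a water channel) belong to ion and water transport. Folr1 (folate receptor alpha), Prlr (the prolactin receptor) and Kl (alpha-klotho, a co-receptor of FGF23) are surface proteins, and Enpp2 encodes autotaxin, a secreted enzyme that makes lysophosphatidic acid.

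On GRCm38, with GENCODE M21 gene limits, the genes lie apart from each other on 8 chromosomes, and only Slc4a5 with Aqp1 and Enpp2 with Prlr share one. Otx2 spans chr14:48657677-48673819 on the minus strand, Slc4a5 spans chr6:83219828-83304945 on the plus strand, and Kcnj13 spans chr1:87386363-87394729 on the minus strand. Clic6 lies at chr16:92485736-92541243, Aqp1 at chr6:55336432-55348555 and Kl at chr5:150952607-150993817, all on the plus strand. Folr1 lies at chr7:101858331-101870788 and Enpp2 at chr15:54838901-54952892, both on the minus strand. Prlr lies at chr15:10177238-10349180 on the plus strand.

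Of the 10 genes, 6 had windows before their start sites in the RefSeq promoter set (GRCm38.p6), and Ttr, Folr1, Clic6 and Enpp2 were not used here. The 250 bases upstream are shown for Kcnj13 and Prlr, the 2 genes with the smallest unadjusted p-values in choroid plexus nuclei. The Kcnj13 window (chr1:87394730-87394979, minus strand) lies inside the gene Gigyf2. The Prlr window (chr15:10176988-10177237, plus strand) lies in no annotated gene, and neither window overlaps an exon.
Kcnj13: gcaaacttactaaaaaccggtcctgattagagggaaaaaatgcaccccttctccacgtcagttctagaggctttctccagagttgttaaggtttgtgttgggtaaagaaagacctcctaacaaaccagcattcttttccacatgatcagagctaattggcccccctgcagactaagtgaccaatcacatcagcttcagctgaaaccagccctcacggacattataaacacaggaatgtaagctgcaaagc
Prlr: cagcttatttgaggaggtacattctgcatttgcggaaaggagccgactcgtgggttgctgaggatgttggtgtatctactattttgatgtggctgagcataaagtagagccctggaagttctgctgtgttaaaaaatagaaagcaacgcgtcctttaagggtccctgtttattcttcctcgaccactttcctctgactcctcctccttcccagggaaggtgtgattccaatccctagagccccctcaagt
Neither holds the letters TAATCC on either strand, a core recognised by OTX-type homeodomain factors, so no base is in capitals. Of the 11 windows found for the 6 genes, 1 holds these letters, a window of Otx2 itself, 211 bases before that start. Among all 32851 windows of the set 6.25% hold them. A match in a window of this length is a description of letters only.

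The libraries held 25466033 to 100529717 UMIs, with batch 2 the shallower: median UMIs per barcode were 3678 to 8278 in batch 1 and 2262 to 3407 in batch 2. Pairs of libraries shared 63 to 137 barcode sequences. Of 58286 barcodes, 54230 were kept as nuclei. Mouse Angpt2 itself was at 3.72, 4.36 and 3.94 CPM (UMIs of the gene per 1000000 UMIs of the set) in the controls and at 4.79, 3.63, 2.24 and 2.74 CPM in the ANGPT2 group, so it did not separate the groups. The vector's own sequence was not analysed here.

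Nuclei were clustered without the 10 genes, and clusters were named from other markers, so that choroid plexus nuclei were not picked by these genes. The 10 genes did enter the naming of other classes: a cluster led by any of them could not take another class name. One cluster was named choroid plexus from 15 markers (Sostdc1, Calml4, Tmem72, Lmx1a, Cldn2 and others), all 15 of which were detected in it and 14 or 15 in each library. It held 186 kept nuclei of 54230. The label held up against the 10 genes: 96.2% of these nuclei carried UMIs of at least 5 of them, against 0.0407% of the 54044 other nuclei. The 15 markers summed to 48920.3 to 52207 CPM in the control libraries and 46667 to 60744 CPM in the ANGPT2 libraries. Of 12 ependymal markers, 7 to 10 had UMIs there, at 3300 to 3528 CPM in controls and 2757 to 4367 CPM in the ANGPT2 group. Dentate granule neuron markers (3 or 4 of 5 with UMIs) summed to 1337 to 1957 CPM in controls and 1687 to 2329 CPM with ANGPT2. Thalamic excitatory neuron markers summed to 593 to 949 and 594 to 873 CPM. Oligodendrocyte markers summed to 655 to 712 and 556 to 929 CPM, and markers of further types also had UMIs. Of 10 endothelial markers 1, the transporter gene Slco1a4, had UMIs in all 6 libraries that had choroid plexus nuclei, and Ly6c1 had UMIs in the ANGPT2 female of batch 1. The 10 summed to 178 to 309 CPM in controls and 289.6 to 655 CPM with ANGPT2, and the defining genes Flt1, Cldn5, Pecam1, Cdh5 and Tek were at 0 in all 6.

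Choroid plexus nuclei were few, and their number differed between mice more than between groups. The controls had 41, 32 and 18 of them (male of batch 1, female of batch 1, male of batch 2). The ANGPT2 group had 21 and 62 in batch 1 (male, female) and 0 and 12 in batch 2 (male, female). As a share of kept nuclei this was 0.488%, 0.445% and 0.203% in the controls and 0.294%, 0.701%, 0% and 0.154% in the ANGPT2 group. The ANGPT2 female of batch 1 had the most and the ANGPT2 male of batch 2 had 0 of 5974, which allows a share of up to 0.0502%. The groups overlapped, with a mean of 0.379% ± 0.154 (SD, n = 3) in controls and 0.287% ± 0.301 (SD, n = 4) with ANGPT2. The difference of -0.0915 percentage points was within the spread (exact permutation test, two-sided, p = 0.686, smallest possible p 0.0286). Within batch 1 it was +0.0307 and within batch 2 -0.126 percentage points. Without the ANGPT2 male of batch 2 it was +0.00421 percentage points. At a finer clustering the ANGPT2 libraries of batch 1 had 23 and 80 such nuclei and the counts of the other libraries were as before.

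All of the genes but Aqp1 had UMIs in the choroid plexus nuclei of every library that had any. Slc4a5, which carries bicarbonate with sodium, stood at 462, 433 and 919 CPM in the controls and at 452, 484 and 546 CPM in the ANGPT2 male and female of batch 1 and female of batch 2. Otx2 stood at 452, 377 and 356 CPM in controls and at 499.6, 358 and 400.3 CPM with ANGPT2. Both genes had overlapping groups, and for Slc4a5 the control male of batch 2 stood above all the others. Clic6 ranged from 400.3 to 840.3 CPM, Kl from 255 to 522 CPM and Folr1 from 115 to 296 CPM over the 6 libraries. Enpp2, the autotaxin gene, stood at 12142, 10257 and 11799 CPM in controls and at 10388, 8935 and 8517 CPM with ANGPT2. Only the control female and the ANGPT2 male of batch 1 crossed for Enpp2.

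Aqp1 was the exception. Its water channel is well known on the apical face of this epithelium, yet 9 Aqp1 UMIs were counted in all 186 nuclei: 3, 2 and 0 in the controls and 0, 3 and 1 in the ANGPT2 male and female of batch 1 and female of batch 2. In all other nuclei 87 were counted, so 9.38% of its UMIs lay in choroid plexus nuclei. A change in Aqp1 there was not detectable at this depth.

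Thinned to 1000 UMIs per nucleus, so that depth was equal, the share of choroid plexus nuclei with a Slc4a5 UMI had a median of 37.4% over 6 libraries (range 9.09% to 61.1%). In the other nuclei the median over 7 libraries was 0.0596% (range 0% to 0.311%). For Otx2 the medians were 27.5% and 0.164%, and for Kcnj13 they were 29.6% and 0.164%. Before thinning the median UMIs of choroid plexus nuclei were 1932 to 6917 per library, and those of the named classes ran from 805 in endothelial to 16710 in excitatory neuron nuclei. Thinning left out 1 choroid plexus nucleus, in the ANGPT2 female of batch 2, and left 6308 to 7378 other nuclei in the controls and 4507 to 8036 in the ANGPT2 libraries. Without thinning the medians were 86.6% and 0.323% for Slc4a5, 77.0% and 0.729% for Otx2, and 72.8% and 0.786% for Kcnj13. At 1000 UMIs the surface proteins had 71.8% and 1.21% (Prlr), 38.6% and 0.365% (Kl) and 16.4% and 0.0634% (Folr1), and Clic6 had 49.4% and 0.321%. Ttr was far more widespread: at the same depth its share was 100% in choroid plexus nuclei (median) and 14.5% in all others (range 3.34% to 56.6%, and 45.6% without thinning).

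**Figure D1:**
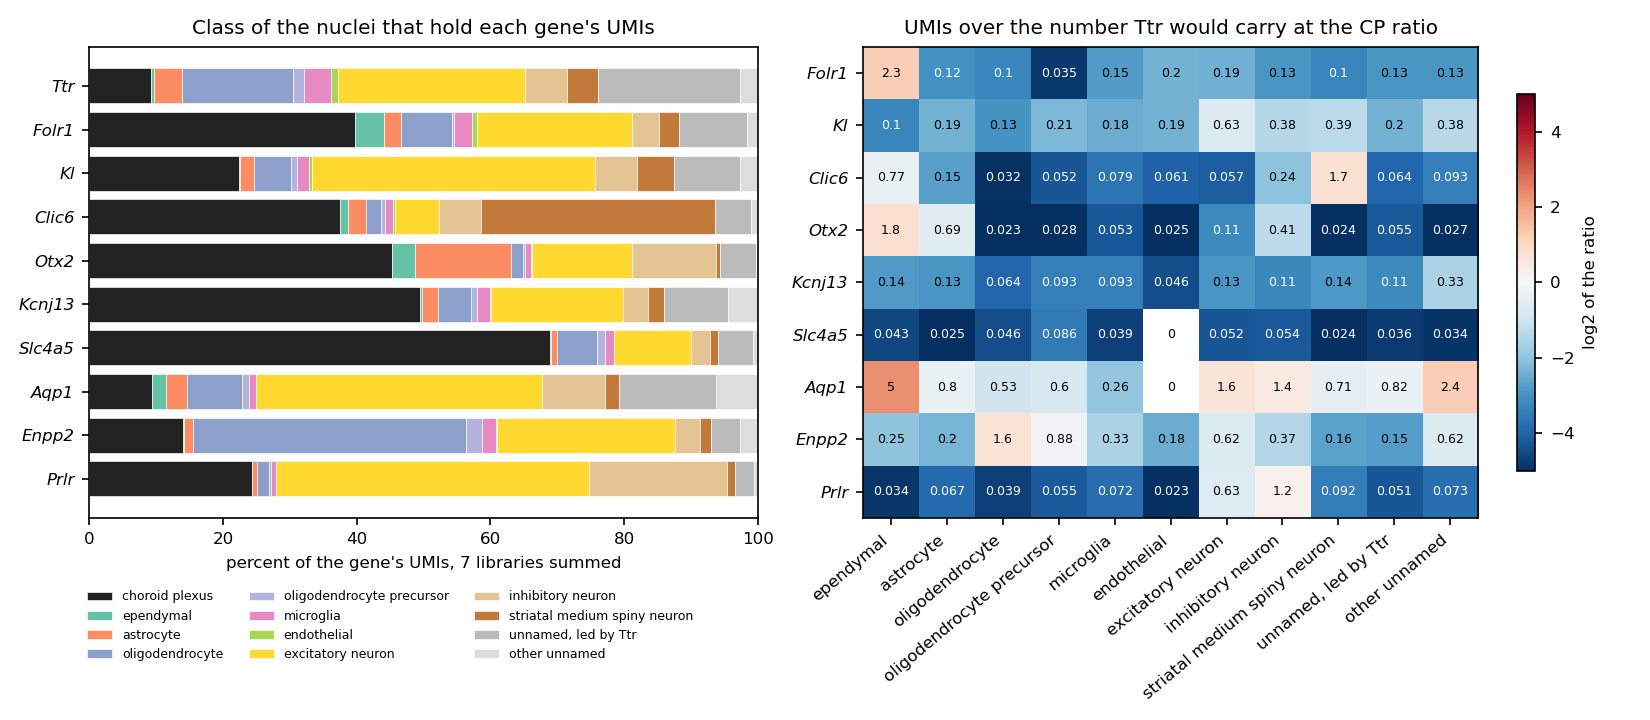
Left, the percent of each gene's UMIs (7 libraries summed) by class of nucleus: Slc4a5 has 69.0% in choroid plexus nuclei (black) and Ttr 9.21%. Right, UMIs of the other 9 genes in each class divided by the number that the Ttr UMIs there would carry at the ratio of choroid plexus nuclei (CP), summed over 6 libraries (color, log2 of that ratio). Most cells are below 1. Among those above it are Clic6 in striatal neurons (1.71) and Enpp2 in oligodendrocytes (1.59). Higher values, from few UMIs, include Aqp1 (4.97, 2 UMIs), Folr1 (2.33, 16 UMIs) and Otx2 (1.77, 30 UMIs) in ependymal nuclei.

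Ttr (chr18:20665280-20674321, plus strand) had most of its UMIs outside the choroid plexus. Of 70872 Ttr UMIs in kept nuclei, 9.21% were in choroid plexus nuclei, 28.0% in excitatory neurons, 16.6% in oligodendrocytes and 21.2% in a cluster of shallow nuclei that stayed unnamed. The share outside was 83.6%, 87.4% and 96.0% in the controls and 88.6%, 93.1%, 100% and 91.2% with ANGPT2 (male and female of batch 1, then of batch 2). The groups overlapped, and the difference of 4.22 percentage points was within the spread (exact permutation test, two-sided, p = 0.343). Within batch 1 it was 5.33 and within batch 2 -0.403 percentage points.

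As a level, Ttr outside the choroid plexus stood at 106, 128 and 136 CPM in the controls. The ANGPT2 group stood at 85.8 and 582 CPM in batch 1 (male, female) and at 68.1 and 27.4 CPM in batch 2 (male, female). The ANGPT2 female of batch 1 was above every other library and the remaining ANGPT2 mice below every control. The male of batch 2 held 1582 Ttr UMIs although it had no choroid plexus nucleus. In choroid plexus nuclei the order was another: 6270.4, 7168 and 3973 CPM in controls, and 6118, 7419 and 2766 CPM in the ANGPT2 male and female of batch 1 and female of batch 2. There the ANGPT2 female of batch 1 was within 1.04-fold of the control female of the same batch, and both batch 2 libraries were lowest.

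Within a library, Ttr UMIs per nucleus were nearly the same in every named class outside the choroid plexus. In the control female of batch 1 a mean nucleus held between 0.870 (striatal medium spiny neurons) and 1.13 (endothelial) Ttr UMIs over the 9 named classes, a 1.29-fold range. Across the same classes the mean depth differed 6.80-fold, and Ttr in CPM differed 7.08-fold, from 80.9 in inhibitory neurons to 572 in endothelial nuclei. In the ANGPT2 female of batch 1 a mean nucleus held 3.62 (ependymal) to 4.77 (endothelial) Ttr UMIs, a 1.32-fold range with a 7.32-fold range of depth. The same range was 2.06-fold, 1.39-fold, 1.72-fold and 1.51-fold in the control male of batch 1, ANGPT2 male of batch 1, control male of batch 2 and ANGPT2 female of batch 2. It was 5.09-fold in the ANGPT2 male of batch 2, whose ependymal class held 15 nuclei. Choroid plexus nuclei held 43.7, 36.3 and 7.44 Ttr UMIs each in the controls and 30.9, 43.8 and 6.33 with ANGPT2.

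**Figure D2:**
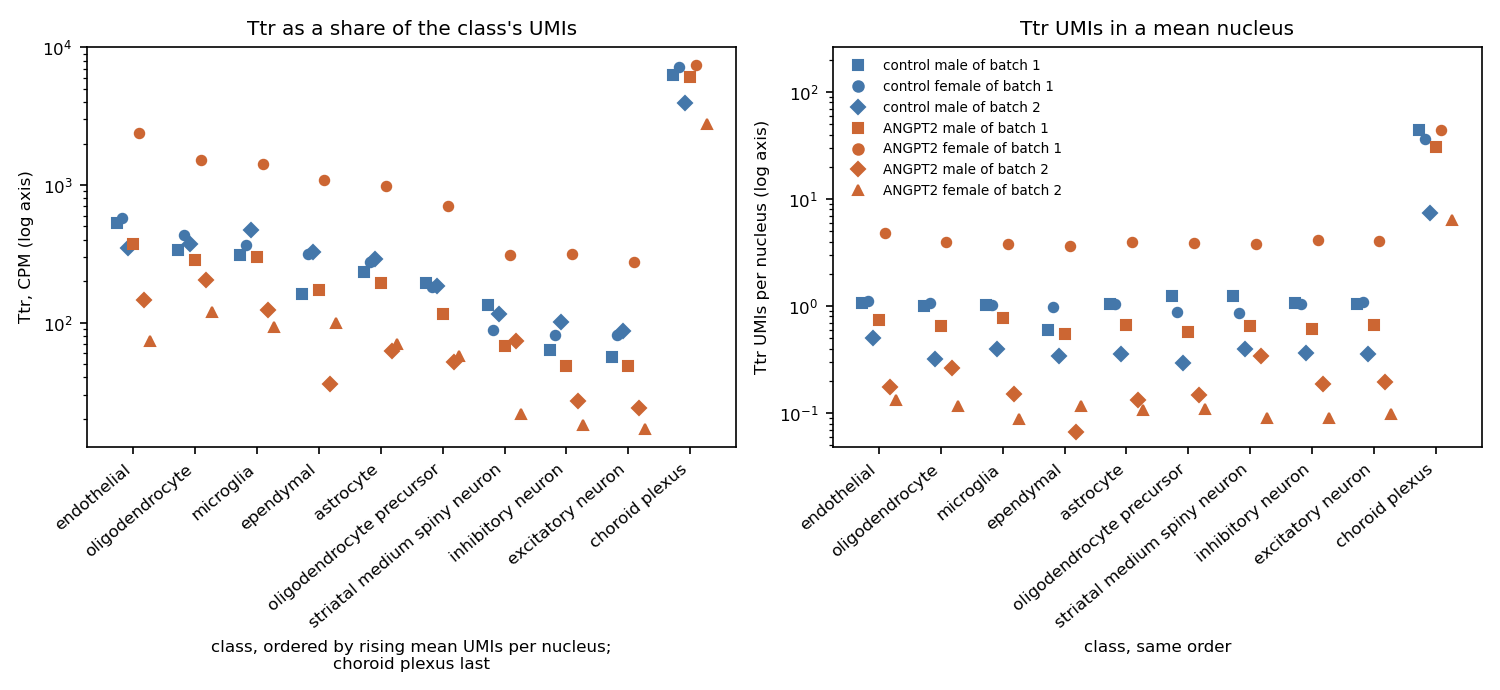
Ttr by class (x axis, ordered by mean UMIs per nucleus, choroid plexus last) and library (blue, control; orange, ANGPT2; shape, sex and batch), for libraries with at least 10 nuclei of a class, on log axes. Left, CPM falls as nuclei get deeper; right, Ttr UMIs per nucleus are nearly level across classes within a library (3.62 to 4.77 in the ANGPT2 female of batch 1) and rise in choroid plexus nuclei.

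This evenness was described against other genes. The coefficient of variation of UMIs per nucleus over the 9 classes, as a median over libraries, was 0.143 for Ttr. Among 10837 genes with a mean of at least 10 CPM over these classes the median was 0.794, and Ttr was the second lowest. The 9 classes leave out the unnamed cluster led by Ttr. No cluster led by Ttr could join them under the naming rule, and the part of that rule in this rank was not tested. Enpp2 had 1.02 and Prlr 1.65, and the other 7 genes were under the level needed. Within each library the log of Ttr CPM ran against the log of mean depth over the classes (Pearson r from -0.995 to -0.816, 9 classes each, which share a library and have depth in the denominator).

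The 5 other genes most like Ttr over 63 class-by-library sums, by Pearson correlation of log2(CPM + 1) among 10840 genes, were Cox8a (0.866), Pcsk1n (0.843), Map1a (0.817), Aldoa (0.794, identifier ENSMUSG00000030695) and Cox4i1 (0.791). Cox8a and Cox4i1 encode subunits of cytochrome c oxidase and Aldoa a glycolytic enzyme. Enpp2 came at 0.519 (rank 935) and Prlr at -0.04. The sums of 1 library share its depth and free RNA, so these values describe the files and carry no p.

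Nuclei of the shallow unnamed cluster had Ttr as leading gene. It held 6341 kept nuclei with 0.242 of their library's median UMIs, and its leading genes after Ttr were Sst, Gm8797, Chchd10 and Mif, with 2 of the 15 choroid plexus markers detected. It took 13.7%, 9.30% and 2.18% of nuclei in the controls and 9.23%, 27.2%, 19.8% and 0.950% with ANGPT2, so the ANGPT2 female of batch 1, with the most Ttr, also had the largest share. A mean nucleus there held 1.49, 1.72 and 0.655 Ttr UMIs in the controls and 1.155, 4.53, 0.312 and 0.176 with ANGPT2, against 30.9 to 43.8 in choroid plexus nuclei of batch 1. In the same libraries the named class with the most held 1.24, 1.13 and 0.507 in the controls. With ANGPT2 that class held 0.768, 4.77, 0.339 and 0.133, so in UMIs per nucleus the cluster was far nearer to the named classes than to choroid plexus nuclei. In CPM this shallow cluster stood between them. It had 1608 CPM in the control male of batch 1 (highest named class 527, choroid plexus 6270). In the ANGPT2 female of batch 1 it had 3023 CPM (highest named class 2376, choroid plexus 7419). Ttr itself had not entered the clustering.

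Outside the choroid plexus the other genes were set against Ttr as UMIs per Ttr UMI. In level, some of them, such as Folr1 and Kcnj13, were like Ttr highest there in the ANGPT2 female of batch 1. Others, such as Otx2, were not. In choroid plexus nuclei there were 60.3 to 231 Slc4a5 UMIs per 1000 Ttr UMIs. At each library's own ratio the Ttr UMIs outside would have come with 4816 Slc4a5 UMIs in the 6 libraries, and 210 were counted, a quotient of 0.0436. The quotient was 0.117 for Kcnj13, 0.128 for Otx2, 0.151 for Clic6, 0.153 for Folr1, 0.312 for Prlr, 0.344 for Kl and 0.623 for Enpp2. In these sums, to which the ANGPT2 female of batch 1 gave most of the outside Ttr UMIs (36549), all 8 were scarcer per Ttr UMI outside than in choroid plexus nuclei. By library, 5 of the 8 stayed below 1 in all 6 libraries, with Slc4a5 at most at 0.0847 and Clic6 at most at 0.646. Enpp2 (median 0.760, highest 1.93), Kl (median 0.582, highest 1.08) and Prlr (median 0.512, highest 1.05) exceeded 1 in at least 1 library. For Aqp1 it was 1.08, from 86 UMIs, with 1.58 in excitatory neurons (41 UMIs) and 0.531 in oligodendrocytes (8 UMIs). Pooled over libraries, the share of a gene's UMIs in choroid plexus nuclei was Slc4a5 69.0%, Kcnj13 49.5%, Otx2 45.3%, Folr1 39.8%, Clic6 37.4%, Prlr 24.3%, Kl 22.4% and Enpp2 14.0%. By library median, over the 6 libraries with such nuclei, Slc4a5 was again highest (70.3%, range 66.7% to 75.0%), then Otx2 (46.2%), Clic6 (42.9%), Folr1 (41.3%) and Kcnj13 (41.2%). Kcnj13 ranged from 14.0% to 74.3% and Clic6 from 7.03% to 68.1%, so the order among these 4 does not exceed the spread between libraries. The ratio was taken from nuclei, and whether free RNA of the same cells holds the genes at that ratio was not measured. A quotient below 1 therefore does not tell the source of the UMIs. Which RNA the UMIs outside came from was not tested.

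Some of the genes stood out in a second class, and in part of these classes the summed quotient exceeded 1. Enpp2 was abundant in oligodendrocytes, with 1489, 971 and 1712 CPM in the controls and 1575, 1347, 1752 and 1518 CPM with ANGPT2, and 40.8% of its UMIs lay there. At 1000 UMIs 75.2% of oligodendrocytes had an Enpp2 UMI (median), against 5.04% of inhibitory neurons. Clic6 stood at 17.1 to 30.6 CPM in striatal medium spiny neurons in all 7 libraries, against 0.436 CPM in excitatory neurons (median). The number of striatal nuclei ranged from 13 in the control male of batch 1 to 1840 in the ANGPT2 male of batch 2, and Clic6 outside the choroid plexus from 0.975 to 9.99 CPM. The lowest library in both was the control male of batch 1. The highest in Clic6 was the control male of batch 2, which had 1708 striatal nuclei, and the part of these numbers in the Clic6 level was not tested.

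Prlr stood at 23.5 to 87.4 CPM in inhibitory neurons and at 3.55 to 38.4 CPM in excitatory neurons, against a median of 4.90 CPM in oligodendrocytes. These 2 neuron classes held 20.7% and 46.8% of its UMIs, with summed quotients of 1.17 and 0.632. Otx2 stood at 5.52 to 22.4 CPM in astrocytes, in all 7 libraries, against a median of 0.541 CPM in oligodendrocytes. In astrocytes it had 126 UMIs over the 7 libraries. Its summed quotient there, from 123 UMIs in 6 libraries, was 0.687, and by library it ranged from 0.257 to 1.53 (median 0.912). Of the 110 Otx2 UMIs in inhibitory neurons 89 came from the control male of batch 1. Folr1 and Otx2 had quotients of 2.33 and 1.77 in ependymal nuclei, from 16 and 30 UMIs, and ependymal cells line the same ventricles. By library these quotients ranged from 1.55 to 5.33 for Folr1 and from 0 to 5.95 for Otx2. Kl had 42.4% of its UMIs in excitatory neurons, with a median of 3.11 CPM and a quotient of 0.626 in the sum, and from 0.210 to 1.96 by library. By library the quotient ranged from 0.996 to 6.67 for Clic6 in striatal neurons, from 0.739 to 4.09 for Enpp2 in oligodendrocytes and from 0.359 to 3.33 for Prlr in inhibitory neurons. The plot of UMIs by class shows the largest of these, such as Enpp2 in oligodendrocytes and Clic6 in striatal neurons, as wide colored blocks.

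Libraries with more choroid plexus nuclei tended to have more Ttr in their other nuclei. Over 7 libraries the choroid plexus share and Ttr CPM outside had a Pearson r of 0.763 (exact permutation p = 0.0194) and a Spearman rho of 0.714 (exact permutation p = 0.0881). Adjusted over these 2 tests (Benjamini-Hochberg), the permutation p-values were 0.0389 and 0.0881. Without the 2 libraries farthest from the median share, the ANGPT2 female of batch 1 and the ANGPT2 male of batch 2, r was 0.499 (exact permutation p = 0.417), and without the first alone it was 0.543 (exact permutation p = 0.271). The relation rests on those libraries, and the batches hold 4 and 3 libraries, too few for an r within each.

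**Figure D3:**
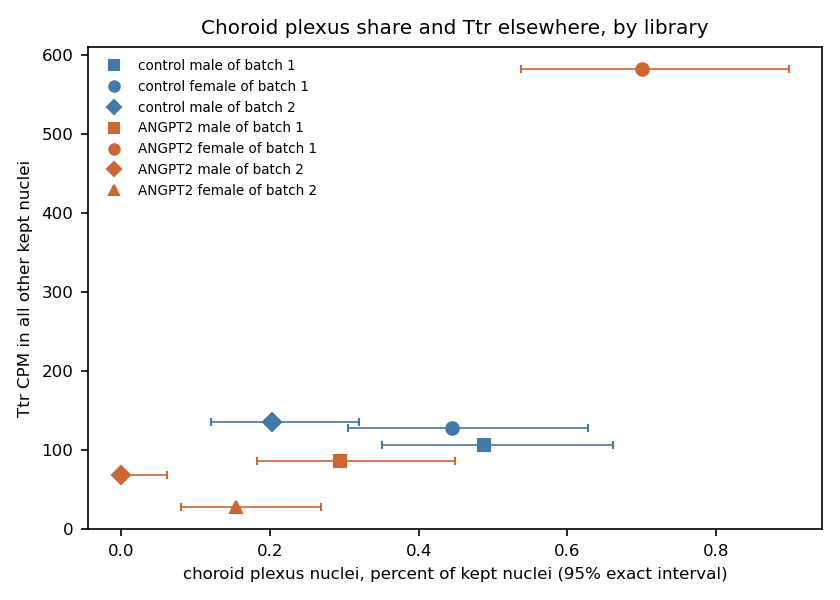
Choroid plexus nuclei as a percent of kept nuclei (x axis, bars are 95% exact binomial intervals, counting error only) against Ttr CPM in all other kept nuclei (y axis), 1 point per library. The ANGPT2 female of batch 1 (0.701%, 582 CPM) stands apart, and the ANGPT2 male of batch 2 has Ttr at 68.1 CPM with 0 choroid plexus nuclei.

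Whether the ANGPT2 vector went with a change in these genes was tested first in choroid plexus nuclei, summed per library (3 controls, 3 ANGPT2 libraries, since the ANGPT2 male of batch 2 had none). Of the 10 genes, 9 were tested, Aqp1 being too sparse, and 0 passed (edgeR quasi-likelihood test, adjusted p under 0.05), with 2 at an unadjusted p under 0.05. Among all 3053 genes tested 0% passed, with 138 at an unadjusted p under 0.05 and 0 called by DESeq2. Their median log2 change was -0.19, beside -0.01 over all genes tested, with 8 of 9 below 0, beside 1569 of 3053. In 1 of the 9, Prlr, every ANGPT2 library was above every control, as in 5.93% of the genes tested, and in 0 of the 9 every one was below, as in 4.95%.

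Kcnj13, the Kir7.1 channel gene, had the lowest p among the 9. It stood at 553, 1087 and 296 CPM in the controls and at 452, 336 and 218 CPM in the ANGPT2 male and female of batch 1 and female of batch 2. The groups overlapped, since the control male of batch 2 lay below both ANGPT2 libraries of batch 1. The log2 change was -0.99 (SE 0.33, edgeR adjusted p = 0.676). It rests in part on the control female of batch 1, the highest library: without that library it was -0.43 (SE 0.30, edgeR adjusted p = 0.997). It was lower in both batches, by a difference of the groups' mean log2(CPM + 1) of -0.99 in batch 1 and -0.44 in batch 2. The batch 2 value rests on 10 Kcnj13 UMIs in 18 nuclei of the control male and 6 in 12 nuclei of the ANGPT2 female.

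Prlr went the other way. It stood at 1831, 1668 and 1038 CPM in the controls and at 2074, 2243 and 2729.7 CPM with ANGPT2, so every ANGPT2 library was above every control. The log2 change was 0.54 (SE 0.25, edgeR adjusted p = 0.977), 0.30 in batch 1 and 1.39 in batch 2 as a difference of mean log2(CPM + 1). The batch 2 values rest on 18 and 12 nuclei. A term for treatment by batch gave Prlr 1.10 (SE 0.43, edgeR adjusted p = 0.563). A term for treatment by sex gave Kcnj13 1.77 (SE 0.59, edgeR adjusted p = 1.00). Of the 58 such terms for the 10 genes 2 had an unadjusted p under 0.05 and 0 passed after adjustment (edgeR).

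Ttr in choroid plexus nuclei had a log2 change of -0.10 (SE 0.30, edgeR adjusted p = 1.00) and ranged from -0.40 to 0.22 without 1 library. Enpp2 had -0.32 (SE 0.22) and Kl -0.31 (SE 0.25). Folr1, Clic6 and Slc4a5 had -0.19, -0.19 and -0.17, and Otx2 -0.0024 (SE 0.23). Their edgeR adjusted p-values ran from 0.977 to 1.00, which does not show that they were equal.

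**Figure D4:**
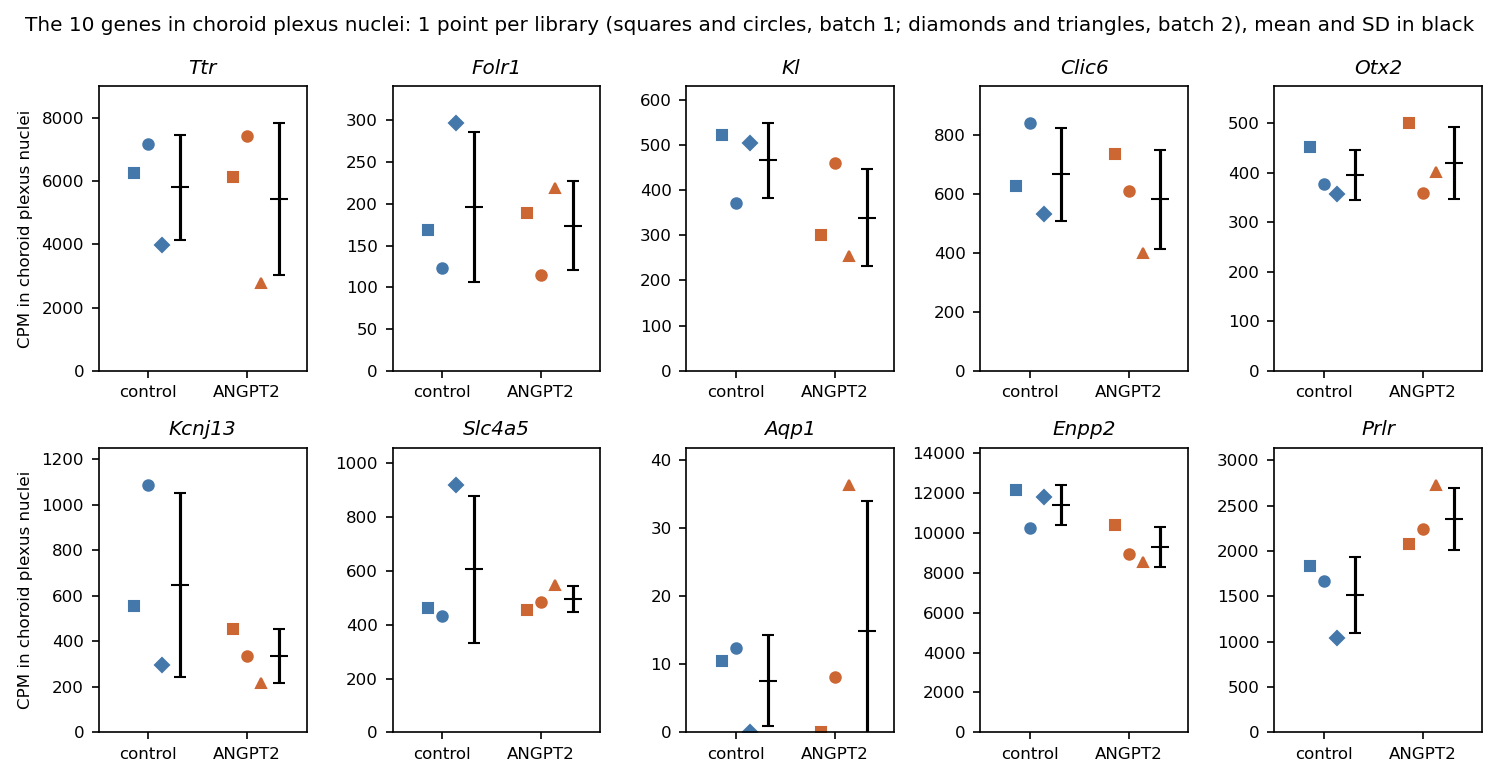
CPM of the 10 genes in choroid plexus nuclei (y axis from 0), 1 point per library with at least 10 such nuclei (blue, control; orange, ANGPT2), with the mean and SD in black, n = 3 in each group. Prlr is the 1 gene whose ANGPT2 libraries (2074 to 2729.7 CPM) all stand above the controls (1038 to 1831 CPM).

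In whole libraries, where the number of choroid plexus nuclei also enters, all 10 genes were tested over 7 libraries and 0 passed (edgeR, adjusted p under 0.05), with 0% of 19997 genes passing, 550 at an unadjusted p under 0.05 and 1 by DESeq2, none of the 10. In nuclei outside the choroid plexus class the counts were 0 of 10 and 0% of 19957, with 556 at an unadjusted p under 0.05 and 2 by DESeq2, none of the 10. In sums over nuclei, fewer cells of a type and less RNA per cell cannot be told apart. In both fits each of the 10 genes had overlapping groups, while in whole libraries 0.775% of genes had every ANGPT2 library above and 3.17% below the controls. Outside the choroid plexus these shares were 0.782% and 3.26%.

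Ttr had a log2 change of 0.55 (SE 0.81, edgeR adjusted p = 0.999) in whole libraries and 0.62 (SE 0.82, edgeR adjusted p = 0.998) outside the choroid plexus. Both turned negative without the ANGPT2 female of batch 1. The values were then -0.98 (SE 0.34, edgeR adjusted p = 0.900) and -0.92 (SE 0.34, edgeR adjusted p = 0.908). The difference of the groups' mean log2(CPM + 1) outside was 0.94 within batch 1 and -1.63 within batch 2. The term for treatment by batch was -2.72 (SE 1.20, edgeR adjusted p = 0.964). With sex as a covariate the change was 0.10.

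Prlr, higher with ANGPT2 in choroid plexus nuclei, was lower outside them. It stood at 15.2, 31.3 and 18.9 CPM in the controls and at 15.6, 15.5, 6.58 and 9.74 CPM with ANGPT2, and the ANGPT2 libraries of batch 1 lay just above the lowest control. The log2 change was -0.83 (SE 0.33, edgeR adjusted p = 0.998). The control female of batch 1, highest here, also had the highest Prlr in excitatory neurons (38.4 CPM). Without that library the change was -0.39 (SE 0.29, edgeR adjusted p = 1.00), and without each of the others in turn it stayed negative, down to -1.06. Enpp2 outside had 0.33 (SE 0.15, edgeR adjusted p = 0.998) and Otx2 -0.69 (SE 0.45, edgeR adjusted p = 0.998).

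**Figure D5:**
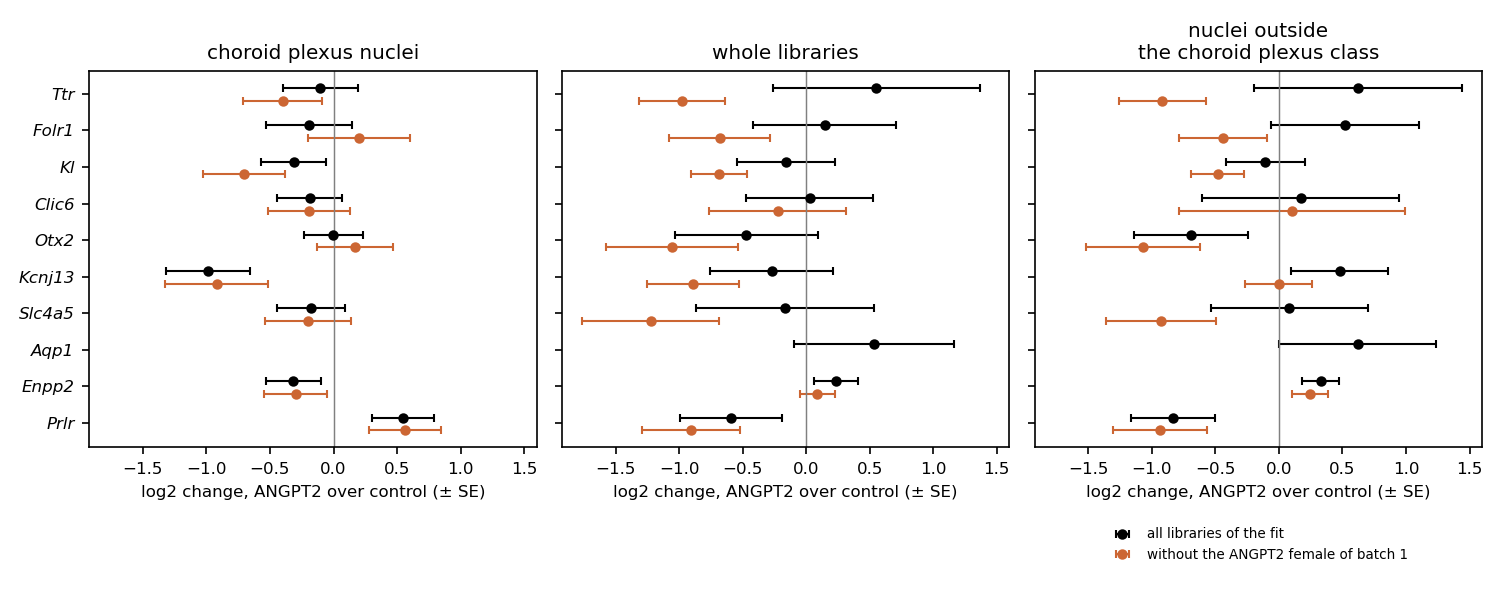
Log2 change (ANGPT2 over control, x axis, bars are SE) of each gene (rows) in choroid plexus nuclei, whole libraries and all other nuclei, with the libraries of each fit (black) and without the ANGPT2 female of batch 1 (orange). Ttr outside the choroid plexus goes from 0.62 to -0.92, while Kcnj13 and Prlr in choroid plexus nuclei stay near -0.99 and 0.54; Aqp1 was tested in the black fits of the last 2 panels.

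Class by class the same library set the sign. Ttr had log2 changes from 0.20 in striatal medium spiny neurons to 0.71 in endothelial nuclei in the 9 named classes, and 0 of 9 passed (edgeR, adjusted p under 0.05; 0 of 9 at an unadjusted p under 0.05), with 0% of the genes of each class passing. Without the ANGPT2 female of batch 1 all 9 were negative, from -0.82 in oligodendrocytes (edgeR adjusted p = 0.852) to -1.30 in endothelial nuclei (edgeR adjusted p = 0.999). With batch as a block Ttr turned to -0.08 in excitatory and -0.06 in striatal neurons. The ANGPT2 female of batch 1 had the highest Ttr in all 9 classes, 2.33 to 4.15 times the next library. The 9 values share the same 7 mice and are not 9 separate results.

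Other genes of the tissue, 50 in 6 lists, were read the same way. In choroid plexus nuclei 0 of the 33 tested passed (edgeR, adjusted p under 0.05), 3 had an unadjusted p under 0.05, and DESeq2 called 0 of 48. Of ion and water transport 9 of 10 genes were tested, 7 below 0, with a median log2 change of -0.31. Of the identity transcription factors all 6 were tested, 4 below 0, with a median of -0.28, and of the epithelial junction 5 of 9, 4 below 0, with a median of -0.44. Over all genes tested the median was -0.01. Receptors and uptake had 6 of 10 tested and a median of 0.11. Secreted proteins (4 of 8 tested) and thyroid hormone and retinol handling (3 of 7) had -0.06 and -0.05.

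The list genes with the smallest p in choroid plexus nuclei were Msx1 at -1.62 (SE 0.38, edgeR adjusted p = 0.410) and Lepr, the leptin receptor, at -0.77 (SE 0.31, edgeR adjusted p = 0.977) on the lower side. On the higher side they were Ocln (occludin, a tight junction protein) at 1.09 (SE 0.39, edgeR adjusted p = 0.883) and Igf1r at 0.53 (SE 0.27, edgeR adjusted p = 0.977). Msx1, a homeodomain factor, was among the markers that named the cluster. Outside the choroid plexus and in whole libraries 0 of 46 and 0 of 47 list genes passed (edgeR, adjusted p under 0.05; DESeq2 also 0), with 3 at an unadjusted p under 0.05 in each. The smallest p on the lower side outside belonged to Lrp2 (-0.72) and Lmx1a (-1.36), and in whole libraries to Lrp2 (-0.72) and Msx1 (-0.62). Among those on the higher side was Slco1c1, at 0.81 outside and 0.75 in whole libraries. It encodes a transporter of thyroid hormone, which Ttr carries, and is also expressed by cells other than the choroid plexus.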

How the data were processed

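The authors deposited a matrix of UMI counts for each mouse, not normalized, made with Cell Ranger 6.1.2 on mm10 (GRCm38), per the submitters' processing notes. The 10 genes, lists and tests were chosen with earlier results of these data known. Barcodes with at least 300 genes and under 5% mitochondrial UMIs were kept (1 and 116 removed), doublets were called per library from simulated doublets (5.04% to 7.70%) and left out. Nuclei were clustered with scanpy 1.11.5 (2500 variable genes without the 10 genes, 40 components, 15 neighbours, Leiden resolution 1), and clusters named from markers (at least 3 detected, score at least 0.4). Choroid plexus markers excluded the 10 genes. A cluster whose leading gene was any of the 10 could only be named choroid plexus or left unnamed. Shares at equal depth came from thinning each nucleus to 1000 UMIs. CPM is per 1000000 UMIs of the set named.

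Counts were summed per library and class (at least 10 nuclei) and tested with edgeR 4.0.16 (quasi-likelihood, TMM, filterByExpr with minimum count 10 and total 15, treatment alone, Benjamini-Hochberg over all genes of the fit, threshold 0.05); DESeq2 1.42.0 was an alternative. Batch differences are of the groups' mean log2(CPM + 1). The script was tested on simulated data. Library shares used exact permutation tests. Besides the 10 genes, those named were, per fit, the 2 list genes with the smallest p in each direction, the 5 genes most like Ttr, and markers. A list gene that this rule names is not reported here. The labels' replicate number marks a batch, so it groups libraries into blocks. Deviations from group means correlated 0.075 to 0.455 between same-batch and -0.427 to 0.085 between other libraries across groups (whole libraries). Symbols shared by 2 identifiers are given by identifier. Intervals (95%) and limits for a count of 0 (3 counts) cover counting error only.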

Additional observations from a re-analysis of the deposited data

Results flagged for a closer look

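In 14 of the 32 ANGPT2 groups of 4 libraries tested, the highest library stood apart from the other 3 by more of the group's range than Dixon's 95% critical value allows, and in all 14 it was the ANGPT2 female of batch 1. Chance flags about 1 in 20 groups, and the 14 share that library, so they are not separate events. For Ttr it stood at 622 CPM in the whole library (next highest ANGPT2 library 96.7) and at 582 CPM outside the choroid plexus class (next 85.8). By class, its Ttr stood at 984 CPM in astrocytes, 2376 in endothelial nuclei, 1096 in ependymal nuclei, 277 in excitatory neurons and 314 in inhibitory neurons. It stood at 1418 CPM in microglia, 1513 in oligodendrocytes and 698 in oligodendrocyte precursors. The next ANGPT2 library in these classes had between 48.6 CPM (excitatory neurons) and 370.3 CPM (endothelial nuclei). The same library stood apart for Folr1 outside the choroid plexus (1.62 CPM, next 0.381), for Kcnj13 outside it (3.14 CPM, next 1.28), and for Kl in the whole library (9.36 CPM, next 3.34) and outside the choroid plexus (6.74 CPM, next 2.80). It also had the most choroid plexus nuclei (62 of 8845) and the largest share of nuclei in the shallow Ttr-led cluster (27.2%), and the part of these in the 14 values was not tested.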

How the results depend on the processing

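No gene of the 10 was called under any alternative run. Of 405 alternative log2 changes of the 9 genes other than Ttr, 368 kept their direction and 37 reversed, and 0 newly passed. With the batch as a replicate block Ttr was -0.17 in choroid plexus nuclei, 0.20 in whole libraries and 0.26 outside. The block turned it to -0.082 in excitatory and -0.063 in striatal neurons. With the block and sex, Ttr in whole libraries was -0.00714 and Folr1 0.014 in choroid plexus nuclei and -0.057 in whole libraries, while with sex alone Folr1 in whole libraries was -0.16. Otx2 in choroid plexus nuclei, near 0, was 0.019 with doublets kept, 0.031 by DESeq2, 0.035 with no filter, 0.068 with sex, 0.058 with the block and sex and 0.042 with the 10 genes among the variable genes. Clic6 in whole libraries was -0.011 with doublets kept and -0.061 without TMM, and Slc4a5 outside was -0.014 with doublets kept and -0.17 with sex. Genes called in choroid plexus nuclei numbered 4 with no filter, 1 with the block and sex, and 0 to 2 without 1 library; DESeq2 called 1 in whole libraries and 2 outside. The correlation of share and Ttr was 0.499 without the 2 farthest libraries and 0.543 without the ANGPT2 female of batch 1. Leaving out 1 library at a time, the share difference ran from -0.229 to 0.00421 percentage points. Ttr ran from -0.40 to 0.22 (choroid plexus nuclei), -0.98 to 0.90 (whole) and -0.92 to 0.98 (outside), and by class from -1.14 to 0.67 (astrocytes), -1.30 to 1.09 (endothelial), -1.10 to 1.00 (ependymal), -1.21 to 0.61 (excitatory), -1.21 to 0.76 (inhibitory), -1.05 to 0.74 (microglia), -0.82 to 0.82 (oligodendrocytes), -1.11 to 0.70 (precursors) and -0.86 to 0.53 (striatal). In choroid plexus nuclei Folr1 ran from -0.41 to 0.20, Clic6 from -0.33 to 0.030, Otx2 from -0.15 to 0.17 and Slc4a5 from -0.34 to 0.094. In whole libraries Folr1 ran from -0.68 to 0.42, Kl from -0.69 to 0.022, Clic6 from -0.30 to 0.72, Kcnj13 from -0.89 to 0.020 and Slc4a5 from -1.22 to 0.17. Outside, Folr1 ran from -0.44 to 0.75, Kl from -0.48 to 0.022, Clic6 from -0.32 to 1.77, Kcnj13 from -0.00274 to 0.65 and Slc4a5 from -0.93 to 0.33. The cause of these reversals was not tested. The 12 to 62 choroid plexus nuclei per library limit the depth of that comparison.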
